A study of Mus musculus with 7 samples.

Results

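The SLC25 carriers were followed in nascent RNA of embryonic blood-forming cells. They were taken as all protein-coding genes of the count table whose mouse symbol begins with Slc25a, 47 of 55487 genes, of which 34 passed the filter on low counts (at least 10 counts in at least 2 libraries of one group) and were tested among 10311 genes. CD31+cKIT+GFI1+ cells of the intra-aortic hematopoietic clusters (GFI1+ IAHC) were sorted from the aorta-gonad-mesonephros region (AGM) of E11.5 embryos that carry a Gfi1:tomato reporter (strain label CD1/Gf1+), and all sets were kept overnight in compE, a γ-secretase inhibitor that blocks the release of the active Notch fragment. After that, portions of 300 to 400 cells spent 4 h in methylcellulose with EU, a uridine analog that marks new RNA, in 3 groups: with DMSO after washing (washout, 3 libraries), with compE again (2 libraries) or with recombinant Fc-JAG1, a soluble form of the Notch ligand JAG1 (2 libraries). The labels give compE as 10 mM and Fc-JAG1 as 4 mg/ml, whereas the methods give the same figures in μM and μg/ml. Libraries carry the number of their biological sample, which is 1, 2 or 3 in the washout, 1 or 2 with compE and 1 or 3 with Fc-JAG1. The labels call the samples embryos and the methods describe pools of embryos, so a library is not one animal.

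Carriers of the SLC25 family sit mostly in the inner mitochondrial membrane, where they exchange nucleotides, phosphate, carboxylates, amino acids, cofactors and metal ions between matrix and cytosol. They are built from repeated pairs of membrane-spanning helices, are encoded in the nucleus and reach the inner membrane through the TIM22 import pathway. A few sit elsewhere: Slc25a17 encodes a peroxisomal carrier and Slc25a46 a protein of the outer mitochondrial membrane. In blood formation the family is known for mitoferrin-1 (Slc25a37) and the glycine carrier Slc25a38, which bring iron and glycine to heme synthesis.

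Library totals ran from 21652927 to 33974693 counts and the number of genes with at least 10 counts from 6265 to 12351. Washout 2, compE 2 and Fc-JAG1 1 held 11600 to 12351 such genes and the other 4 libraries 6265 to 8096, so that a carrier missing from one of these 4 is a common case. A count of 0 allows up to 3 counts, which is 0.0883 to 0.139 CPM, the count scaled to the total of its library. The reads carry no molecular identifiers, so these limits cover counting error only, and a high count can come from few captured molecules. Of the genes behind the sort, Kit had 6381 to 19331 counts, whereas Gfi1 was at 0 in 4 of 7 libraries. Pecam1, which encodes CD31, had 18 counts in washout 1 and 11 in Fc-JAG1 3, and 1186 to 6314 elsewhere. Runx1, a blood transcription factor, had 16525 to 51298 counts. Ptprc, which encodes CD45, had 3 in washout 3 and 2183 to 19875 elsewhere. Cdh5 had at most 3 counts outside washout 1, where it had 139. The summed level of 12 erythroid markers ranged from 20.1 to 641 CPM, that of 7 macrophage markers from 52.3 to 526 and that of 5 mesenchyme markers from 0.139 to 15.7. The erythroid genes Alas2 and Slc4a1 were at 0 and at most 1 count in every library, and Mrc1, a macrophage gene, at most 3. Because these are captured sets of cells, fewer cells making a transcript and less of it per cell cannot be told apart.

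Most of the carriers were transcribed in some library, but few in all. The number with at least 10 counts was 16, 37 and 22 of 47 in washout 1, 2 and 3. It was 22 and 37 in compE 1 and 2, and with Fc-JAG1 36 in library 1 and 27 in library 3. These are 34.0% to 78.7% of the members, beside 25.6% to 49.3% of all protein-coding genes. Over the groups, 72.3% of the members and 43.0% of 21974 protein-coding genes passed the filter. Of the 34 tested members 7 had at least 10 counts in every library, which is 20.6%, beside 29.4% of all tested genes: Slc25a3, Slc25a4, Slc25a5, Slc25a11, Slc25a13, Slc25a21 and Slc25a22. At the other end, 17 tested members were at 0 in at least 1 library. In the 3 libraries with the most genes, 30 of the 34 tested members (88.2%) had at least 10 counts in all 3, beside 83.2% of all tested genes, and the exceptions were Slc25a36, Slc25a42, Slc25a48 and Slc25a53.

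**Figure D1:**
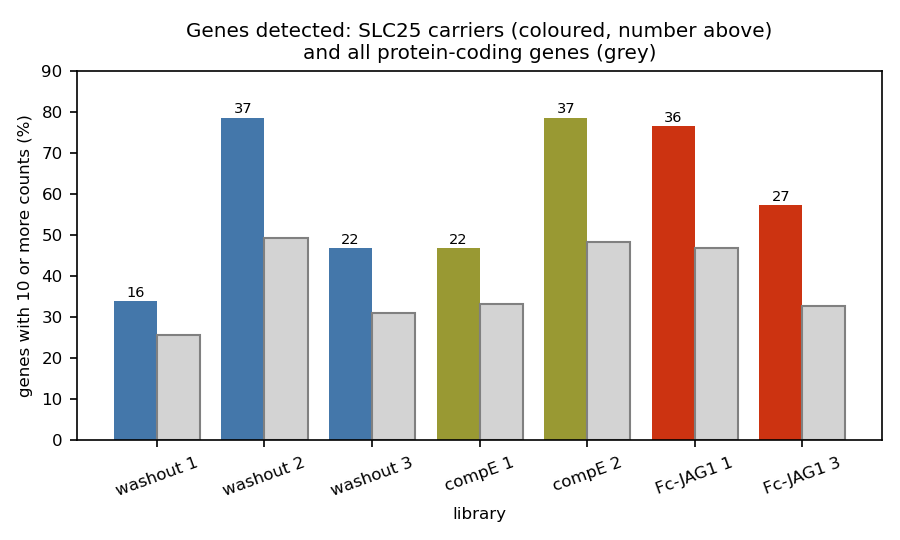
Bars give, for each library on the horizontal axis, the percentage of genes with at least 10 counts, for the 47 SLC25 carriers (coloured by group, with their number above) and for all protein-coding genes (grey). The carriers stand at 16 to 37 genes, highest in washout 2 and compE 2 and lowest in washout 1.

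The members that did not pass the filter were 13. Slc25a2, Slc25a34 and Slc25a35 had no count in any library, and Slc25a31 and Slc25a54 had at most 2 and 1. Slc25a27, which encodes a relative of the uncoupling proteins, had 3877 counts in Fc-JAG1 3 and 0 in the other 6 libraries. Slc25a18, the second mitochondrial glutamate carrier, had 1033 counts in compE 2 and 238 in Fc-JAG1 1, and at most 2 elsewhere. The largest counts of Slc25a14, Slc25a23, Slc25a29, Slc25a40, Slc25a41 and Slc25a43 were 329, 187, 563, 436, 57 and 42. Since no group held 2 libraries with at least 10 counts of them, these genes were not compared between groups.

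**Figure D2:**
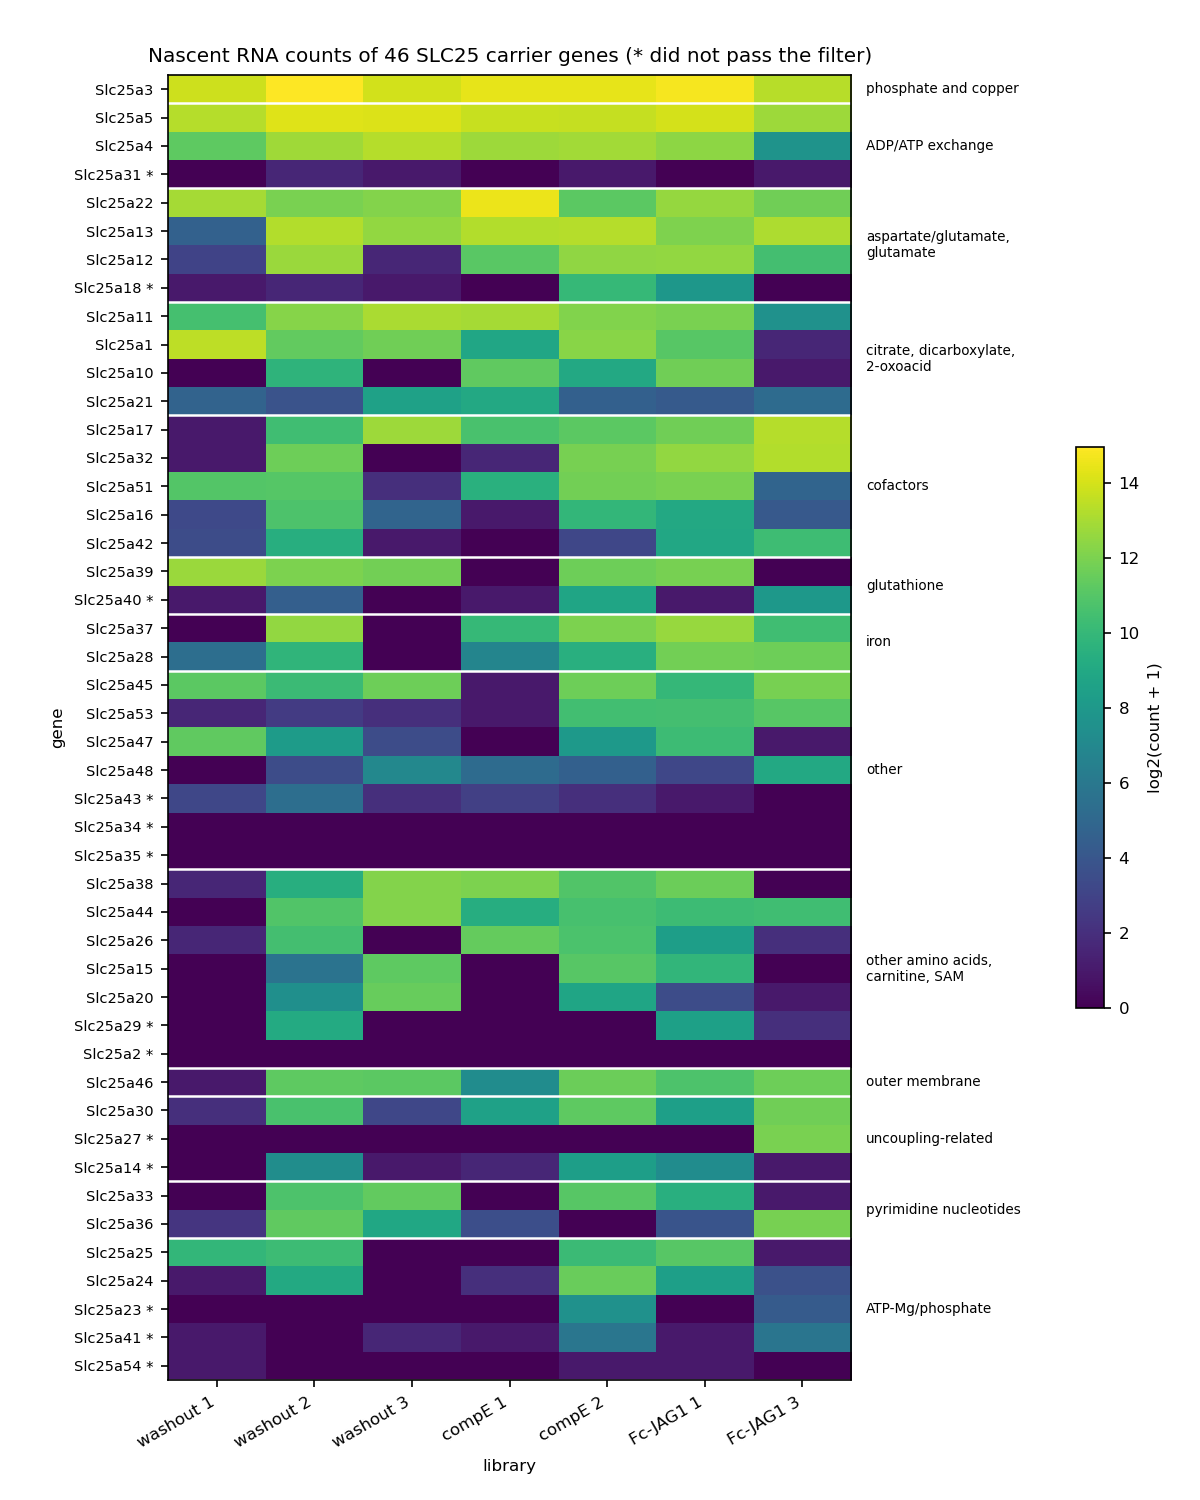
Each row is 1 of 46 carriers, grouped by what it carries, each column is a library and the colour is log2(count + 1). The rows of Slc25a3 and Slc25a5 are bright in all 7 libraries (10510 to 31838 and 6865 to 19176 counts), whereas most other rows change between bright and dark from library to library within a group.

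All members together held 0.319%, 0.414% and 0.328% of the counts in washout 1, 2 and 3. The share was 0.375% and 0.354% with compE and 0.376% and 0.301% with Fc-JAG1. The groups overlapped, and the family's share varied less than the number of members detected. The spread of single members was as wide as that of other genes: the median coefficient of variation over the 7 libraries was 1.16 for the 34 tested members and 1.08 for all tested genes.

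The level per length was led by the carriers that link ATP synthesis to the cytosol. Slc25a5, which encodes the ADP/ATP translocase ANT2, stood at 292 ± 80.9 CPM per kb of exon (SD over 7 libraries) and Slc25a3, the carrier of phosphate and copper, at 127 ± 31.5. They were followed by Slc25a4 (ANT1) at 81.1 ± 47.1, the 2-oxoglutarate/malate carrier Slc25a11 at 72.3 ± 53.8, the citrate carrier Slc25a1 at 70.0 ± 105 and the aspartate/glutamate carrier Slc25a13 at 60.5 ± 35.8 CPM per kb. From Slc25a4 downward the neighbours in this order differed by less than their SD. Slc25a22, Slc25a17, Slc25a39, Slc25a45 and Slc25a38 followed with 48.7, 46.5, 42.6, 28.6 and 24.9 CPM per kb. Nascent RNA can hold introns, and when the level was taken per kb of the whole gene Slc25a5 and Slc25a3 kept their ranks (152 and 93.9), while Slc25a13, in a gene of 175956 bases, moved from rank 6 to 20 and Slc25a17 from rank 8 to 16.

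**Figure D3:**
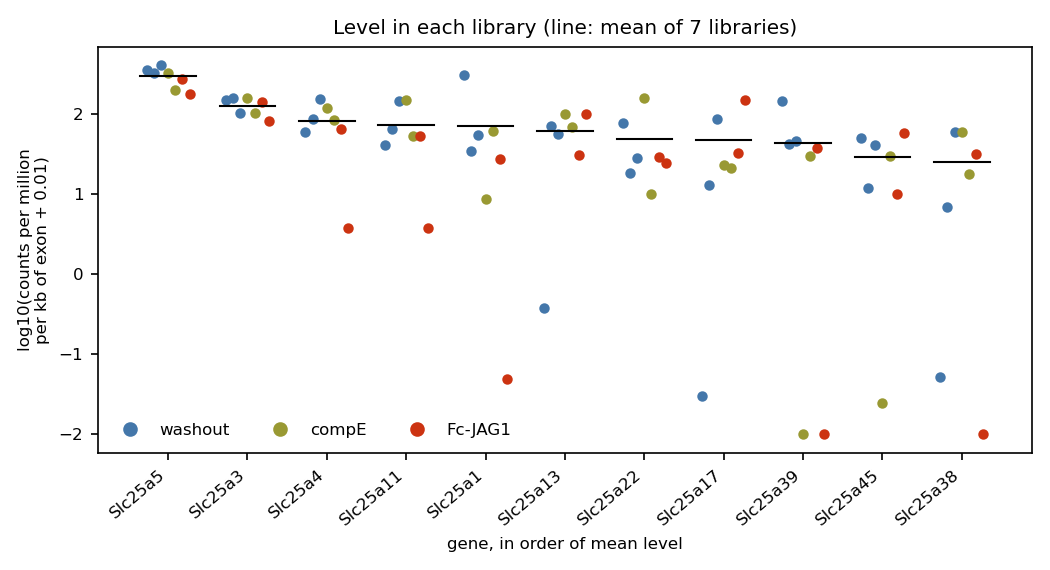
The 11 carriers with the highest mean level among those reported stand on the horizontal axis in order, and the vertical axis gives log10(CPM per kb of exon + 0.01), with 1 point per library coloured by group and a line at the mean of 7 libraries. Points of Slc25a5 and Slc25a3 lie close together, whereas Slc25a39 and Slc25a38 reach down to libraries with 0 counts.

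Of the ADP/ATP translocases, Slc25a5 had 9863, 19176 and 18505 counts in the washout, 13567 and 12743 with compE, and 16268 and 6865 with Fc-JAG1, here and below in the order of the sample numbers. Slc25a4 had 2384, 7354 and 10063 in the washout, 7038 and 7670 with compE, and 5469 and 207 with Fc-JAG1. Its low value in Fc-JAG1 3 sets that library apart, while the other 6 lie within a factor that the washout alone spans. Per exon length Slc25a5 made up 70.4% to 97.9% of both (median 78.9%). A transcribed pseudogene, Slc25a5-ps, had 1 to 18 counts, and only uniquely mapped reads were counted, so reads shared between near-identical copies are missing from these values. Slc25a3 had 14276, 31838 and 15754 counts in the washout, 21804 and 22000 with compE, and 28131 and 10510 with Fc-JAG1, and was the top member in 5 of 7 libraries.

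For both genes, which were found in every library, the 250 bases before the RefSeq start of transcription (build GRCm38.p6) are shown 5′ to 3′ on the gene's strand, with GC boxes (GGGCGG) and ETS cores (CCGGAAG) of either strand in capitals.
Slc25a5 (chrX:36795347-36795596, plus strand): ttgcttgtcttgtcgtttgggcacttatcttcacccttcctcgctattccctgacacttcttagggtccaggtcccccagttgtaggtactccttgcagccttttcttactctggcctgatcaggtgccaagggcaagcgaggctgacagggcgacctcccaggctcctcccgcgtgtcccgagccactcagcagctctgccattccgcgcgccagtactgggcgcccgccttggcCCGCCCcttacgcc
Slc25a3 (chr10:91123968-91124217, minus strand): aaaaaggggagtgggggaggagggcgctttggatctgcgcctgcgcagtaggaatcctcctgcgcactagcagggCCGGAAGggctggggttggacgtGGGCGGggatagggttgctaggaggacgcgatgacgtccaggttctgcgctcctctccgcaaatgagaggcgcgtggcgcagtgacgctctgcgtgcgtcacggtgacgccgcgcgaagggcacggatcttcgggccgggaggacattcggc
Both hold 1 GC box, and the Slc25a3 window holds 1 ETS core as well.

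The glutamate and aspartate carriers, which serve the malate-aspartate shuttle and glutamate oxidation, were uneven. Slc25a22, the first mitochondrial glutamate carrier, had 7859, 3968 and 4692 counts in the washout, 23618 and 2319 with compE, and 6242 and 3395 with Fc-JAG1, so that compE 1 and compE 2 were the highest and the lowest library. Slc25a13 (citrin) had 24, 9654 and 5880 in the washout, 9456 and 10177 with compE, and 4222 and 8925 with Fc-JAG1, and only washout 1 stood apart. Slc25a12 (aralar), its paralog, had 7, 6622 and 2 in the washout, 2233 and 5709 with compE, and 6045 and 1463 with Fc-JAG1. Citrin made up 57.5% to 99.98% of the pair per exon length, with a median of 86.9%. This share depends on the length used, since counting ran over whole genes. Per kb of the whole gene the mean levels were 1.31 CPM for Slc25a13 and 0.957 for Slc25a12, beside 60.5 and 12.6 per kb of exon. In Fc-JAG1 1 Slc25a12, the shorter gene (96687 against 175956 bases), had more counts than citrin.

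Among the carriers of citrate, dicarboxylates and 2-oxoacids, Slc25a11 had 1490, 4874 and 8612 counts in the washout, 7893 and 4394 with compE, and 4023 and 188 with Fc-JAG1. Slc25a1, which exports citrate for lipid synthesis, had 11312, 2676 and 3343 in the washout, 468 and 5118 with compE, and 2163 and 2 with Fc-JAG1. Both were thus lowest in Fc-JAG1 3, as was Slc25a4. The dicarboxylate carrier Slc25a10 had 0, 844 and 0, then 2579 and 527, then 3353 and 1 counts in the same order. Slc25a21, the oxodicarboxylate carrier of lysine breakdown, was low throughout, with 26, 13 and 381 in the washout, 528 and 23 with compE, and 18 and 36 with Fc-JAG1. The end of Slc25a11 overlaps Rnf167 on the other strand by 245 bases, and since the use of strand in counting is not given in the sources used here, reads from this stretch cannot be assigned.

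The cofactor carriers summed to 8230 to 20836 counts over the libraries, while single members came and went. Slc25a32, which carries folate (and FAD), had 1, 3179 and 0 counts in the washout, 2 and 3761 with compE, and 6037 and 9489 with Fc-JAG1. Slc25a42, a carrier of coenzyme A, had 10, 664 and 1 in the washout, 0 and 8 with compE, and 503 and 1271 with Fc-JAG1. Both were thus high in the Fc-JAG1 libraries and in washout 2 and at most 10 counts in the other washout libraries, and the Fc-JAG1 libraries were the highest for Slc25a32. Slc25a17 had 1, 1340 and 6911 in the washout, 1648 and 2297 with compE, and 3394 and 10029 with Fc-JAG1. Slc25a51, which carries NAD, ranged from 3 to 3877 counts and Slc25a16 from 1 to 1732, without a split by group.

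The iron carriers were mitoferrin-1 (Slc25a37), the form of red cell precursors, and mitoferrin-2 (Slc25a28), the form of most other cells. Slc25a37 had 0, 5882 and 0 counts in the washout, 1018 and 4187 with compE, and 6331 and 1300 with Fc-JAG1. Slc25a28 had 42, 889 and 0 in the washout, 110 and 687 with compE, and 3526 and 3232 with Fc-JAG1. Mitoferrin-2 was thus highest in both Fc-JAG1 libraries, whereas mitoferrin-1 overlapped between all groups. Per exon length mitoferrin-1 made up 0% of the pair in washout 1, 80.5% in washout 2, 85.2% and 79.1% with compE, and 52.8% and 20.03% with Fc-JAG1, while washout 3 had no count of either. These shares too depend on the length used. Per kb of exon the mean level was 12.8 CPM for mitoferrin-1 and 10.8 for mitoferrin-2, and per kb of the whole gene 1.78 and 3.65. The summed level of the erythroid markers was 20.1, 641 and 39.0 CPM in the washout, 23.9 and 226 with compE, and 236 and 95.2 with Fc-JAG1. It was thus highest in the 3 libraries with the most Slc25a37, which are also the 3 with the most genes (11600 to 12351). The part of the erythroid markers and of the number of genes in the Slc25a37 values was not tested.

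Of the glutathione carriers, Slc25a39 had 6830, 4151 and 3505 counts in the washout, 0 and 3186 with compE, and 3766 and 0 with Fc-JAG1, and its paralog Slc25a40 at most 436. The pyrimidine nucleotide carriers were Slc25a33 and Slc25a36. Slc25a33 had 0, 1750 and 2628 in the washout, 0 and 2175 with compE, and 682 and 1 with Fc-JAG1. Slc25a36 had 4, 2551 and 479 in the washout, 11 and 0 with compE, and 14 and 3747 with Fc-JAG1. Both were well counted in washout 2 and 3 and nearly missing from washout 1 and compE 1, while the other 3 libraries held mainly one of them. The Slc25a36 share of the pair per exon length ran from 0% to 100%, so neither can be called the main form of these cells.

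Carriers of other amino acids, of carnitine and of S-adenosylmethionine were nearly missing from washout 1, where the 7 members summed to 4 counts against 1318 to 14481 elsewhere. Slc25a38 had 2, 678 and 4611 in the washout, 4064 and 1877 with compE, and 3158 and 0 with Fc-JAG1, which does not follow the erythroid markers. Slc25a20, the carnitine-acylcarnitine carrier of fatty acid oxidation, had 0, 177 and 2825, then 0 and 449, then 10 and 1. The ornithine carrier Slc25a15 had 0, 50 and 2411, then 0 and 2163, then 914 and 0. Slc25a44, a carrier of branched-chain amino acids, ranged from 0 to 4634 and the S-adenosylmethionine carrier Slc25a26 from 0 to 2692.

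The ATP-Mg/phosphate carriers, which set the matrix pool of adenine nucleotides under control of calcium, were Slc25a24 with 1, 553 and 0 counts in the washout, 3 and 2927 with compE, and 352 and 12 with Fc-JAG1, and Slc25a25 with 0 to 2134. Slc25a30, a relative of the uncoupling proteins, had 3, 1594 and 8, then 371 and 2451, then 343 and 3388. Slc25a53 had 2, 5 and 3 counts in the washout, 1 and 1356 with compE, and 1419 and 2152 with Fc-JAG1. It was near 0 in every washout library and present in both Fc-JAG1 libraries. The gene overlaps Zcchc18 on the other strand by 5318 bases, and Zcchc18 had 0 counts in all libraries together. As with Slc25a11, reads from this stretch cannot be assigned. Slc25a47 had 2497, 298 and 10, then 0 and 262, then 1224 and 1. Slc25a45 ranged from 1 to 3758, Slc25a46 from 1 to 3248 and Slc25a48 from 0 to 528.

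By position the 47 members are spread over 19 chromosomes, and 4 pairs lie within 50 kb of each other (GRCm38). Slc25a29 and Slc25a47 lie head to head on chromosome 12 with 162 bases between them. Washout 1 had 0 and 2497 counts of this pair and washout 2 had 563 and 298, and Fc-JAG1 1 had 368 and 1224. The other pairs were Slc25a41 and Slc25a23 on chromosome 17, Slc25a54 and Slc25a24 on chromosome 3, and Slc25a43 and Slc25a5 on the X chromosome, 2056, 6461 and 18448 bases apart. In the last pair Slc25a43 had 0 to 42 counts beside the 6865 to 19176 of Slc25a5.

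Fc-JAG1 was compared with the washout to ask what a soluble Notch ligand changes once γ-secretase is released. The folate carrier Slc25a32, the CoA carrier Slc25a42 and mitoferrin-2 (Slc25a28) were higher on average with Fc-JAG1 and the citrate carrier Slc25a1 was lower, but no carrier passed edgeR's quasi-likelihood test, with a smallest adjusted p of 0.828. Over all genes this test called 0% too. At an unadjusted p under 0.05 it had 2 members, both higher, and 526 of 10311 genes. DESeq2's Wald test, which the study used, called 10 members higher, 29.4% of 34 beside 15.7% of all tested genes, and 1 lower, 2.94% beside 4.74%. How far this balance rests on Fc-JAG1 1 cannot be read from the calls made without it. Genes with at least 10 counts in fewer than 2 washout libraries then fail the count rule. Among these, the DESeq2 log2 fold changes without it stayed positive for Slc25a32, Slc25a53, Slc25a37, Slc25a12, Slc25a24 and Slc25a30 (15.88, 9.71, 13.01, 9.74, 6.25 and 8.95). Of the genes that could still be called, Slc25a28 and Slc25a42 had 14.32 and 10.53 and Slc25a1 had −10.48. Those of Slc25a15 and Slc25a33 turned to −13.46 and −11.14. Without Fc-JAG1 1 the median edgeR log2 fold change was 0.62 for the members and 8.88e-17 for all tested genes. The Fc-JAG1 and washout libraries did not overlap for 3 members that were higher (8.82%, beside 10.5% of all tested genes) and 3 that were lower (8.82%, beside 6.85%). The higher ones were Slc25a32, Slc25a53 and Slc25a28, and the lower ones Slc25a1, Slc25a39 and Slc25a5.

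The folate carrier Slc25a32 stood at 284 ± 167 CPM in the Fc-JAG1 libraries (mean and SD, n = 2) and 29.4 ± 50.9 in the washout (n = 3). Its log2 fold change was 12.47 (SE 4.28, adjusted p = 0.828) in edgeR and 12.86 (SE 1.92, adjusted p = 1.11e-08) in DESeq2. The DESeq2 call held in all 5 fits without 1 library in which the count rule could still be met. With no sample number in the fit its log2 fold change was 3.21 in edgeR and 3.52 in DESeq2, which then gave no adjusted p. No Fc-JAG1 library has number 2, so with the sample number Fc-JAG1 is set mainly against washout 1 and 3. These had 1 and 0 counts of Slc25a32, and washout 2 had 3179. Fitted fold changes against libraries near 0 depend on how the fit treats zeros and are no bound. Slc25a53 stood at 65.1 ± 36.9 against 0.121 ± 0.0163 CPM, with a log2 fold change of 13.92 (SE 5.43, adjusted p = 0.828) in edgeR and 9.28 (SE 2.22, adjusted p = 0.000659) in DESeq2. For Slc25a28 the levels were 117 ± 28.4 and 9.03 ± 13.6 CPM, with log2 fold changes of 6.22 (SE 3.12, adjusted p = 0.828) in edgeR and 8.84 (SE 2.29, adjusted p = 0.00165) in DESeq2. Slc25a42 stood at 33.8 ± 28.3 and 6.34 ± 10.5 CPM, and its log2 fold change was 7.05 (SE 3.94) in edgeR and 6.92 (SE 2.02, adjusted p = 0.00601) in DESeq2. The DESeq2 calls of Slc25a28 and Slc25a42 were lost without washout 3 and without Fc-JAG1 3, and that of Slc25a53 without washout 3. With no sample number the DESeq2 values were 8.95 for Slc25a53, 3.82 for Slc25a28 and 2.66 for Slc25a42.

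Slc25a28 and Slc25a42 were called by DESeq2 against both the washout and compE, and the 250 bases before their RefSeq start are shown in the same way, with GC boxes (GGGCGG) and CCAAT boxes (CCAAT) of either strand in capitals. Slc25a32, called in the same comparisons, has no entry in that table.
Slc25a28 (chr19:43674882-43675131, minus strand): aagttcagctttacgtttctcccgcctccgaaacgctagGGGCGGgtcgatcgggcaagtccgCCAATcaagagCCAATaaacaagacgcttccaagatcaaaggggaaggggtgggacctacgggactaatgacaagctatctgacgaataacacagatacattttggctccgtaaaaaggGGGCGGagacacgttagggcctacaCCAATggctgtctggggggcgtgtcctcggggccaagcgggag
Slc25a42 (chr8:70212282-70212531, minus strand): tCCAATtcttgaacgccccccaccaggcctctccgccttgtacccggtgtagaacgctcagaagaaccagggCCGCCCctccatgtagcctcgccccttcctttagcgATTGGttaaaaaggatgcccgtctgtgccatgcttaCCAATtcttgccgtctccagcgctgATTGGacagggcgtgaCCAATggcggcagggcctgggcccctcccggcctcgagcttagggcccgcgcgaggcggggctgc
Slc25a28 holds 2 GC boxes and 3 CCAAT boxes and Slc25a42 holds 1 GC box and 5 CCAAT boxes. Of 36 members with an entry in that table, 25 (69.4%) hold a GC box, beside 35.4% of 27025 genes, and 18 (50%) hold a CCAAT box, beside 37.5%. The 27025 are all genes with an entry and were not limited to protein-coding genes as the members were, so the shares compare unlike sets. The ETS core was in 6 members (16.7%, beside 7.83%) and a TATA box (TATAAA) in 2 (5.56%, beside 14.3%). The core bound by RBPJ, the DNA-binding partner of Notch (GTGGGAA), was in 1 member, Slc25a22 (2.78%, beside 6.18% of genes), and the NRF1 core (GCGCATGC) in 2 (5.56%, beside 2.56%). Such matches are letters in a window of 250 bases and not sites of binding.

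Slc25a37 and Slc25a12 were called higher by DESeq2 as well, with log2 fold changes of 11.94 (SE 2.83, adjusted p = 0.000567) and 7.99 (SE 2.04, adjusted p = 0.00140). With no sample number in the fit these values were 1.17 and 1.00, and without washout 3 both calls were lost (adjusted p = 0.119 and 0.300 in DESeq2). Their libraries overlapped, since washout 2 held 163 and 184 CPM of them and Fc-JAG1 3 held 55.1 and 62.0. The erythroid markers given beside the counts of Slc25a37 apply here too. Slc25a30 had a log2 fold change of 6.39 (SE 2.07, adjusted p = 0.0146) in DESeq2, or 2.67 with no sample number, and the call was lost without washout 1 or washout 3. Slc25a24 and Slc25a15 were called higher although their mean level was not: it was 5.09 ± 6.47 CPM with Fc-JAG1 and 5.13 ± 8.83 in the washout for Slc25a24, and 12.5 ± 17.7 and 29.1 ± 49.2 for Slc25a15. The call of Slc25a24 was kept in 1 of the 5 fits without 1 library in which it could be made, and its DESeq2 value was 6.82, or 0.01 with no sample number. The fit compares libraries of one sample number, and Slc25a15 had 914 counts in Fc-JAG1 1 against 0 in washout 1, and 0 in Fc-JAG1 3 against 2411 in washout 3. Its log2 fold change in DESeq2 was 11.42 (SE 3.74, adjusted p = 0.0156) and reached −13.46 without 1 library, or −1.55 with no sample number. Slc25a33, named here because it was the remaining call, had the same pattern, with 9.38 ± 13.2 against 47.4 ± 46.8 CPM.

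On the lower side Slc25a1 stood at 29.7 ± 41.9 CPM with Fc-JAG1 and 283 ± 324 in the washout, with a log2 fold change of −3.93 (SE 2.37, adjusted p = 0.842) in edgeR and −5.29 (SE 1.78, adjusted p = 0.0193) in DESeq2. This call was lost with TMM factors in DESeq2 (adjusted p = 0.0623) and without washout 1, washout 3 or Fc-JAG1 3. Slc25a20 had −7.29 (SE 5.27, adjusted p = 0.873) in edgeR and was not called by DESeq2. Slc25a5 and Slc25a3, the 2 with the highest level, had log2 fold changes of −0.83 (SE 0.99) and −0.31 (SE 0.73) in edgeR.

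The median log2 fold change of the 34 tested members was 0.89 in edgeR, beside 0.44 for all tested genes, and 21 of 34 (61.8%) were positive, beside 57.3%. The median of all genes depends on the scaling, being 0.07 with the size factors of DESeq2 and 0.71 with total counts only, where that of the members was 0.29 and 1.36. It turned to −0.20 for the members and −0.16 for all genes when the sample number was left out of the fit. Within sample number 1, 17 of 34 tested members (50%) had at least 10 counts in Fc-JAG1 1 and fewer in washout 1, and 0 the reverse, beside 38.2% and 3.95% of all tested genes. These are a library with 11600 genes and one with 6265, and the part of this gap in the fold changes was not tested. Within sample number 3 it was 9 members one way (26.5%, beside 20.2%) and 8 the other (23.5%, beside 18.3%). The 9 were Slc25a12, Slc25a24, Slc25a28, Slc25a30, Slc25a32, Slc25a37, Slc25a42, Slc25a51 and Slc25a53. Without washout 3 DESeq2 called 1 member (Slc25a32), beside 689 of 10311 tested genes, against 2108 in the main fit. With no sample number in the fit it called 1 (Slc25a53), beside 388 genes, with no adjusted p given for 7 of the 11. Without Fc-JAG1 3 the DESeq2 log2 fold changes of the 11 ranged from −3.33 (Slc25a1) to 12.24 (Slc25a15).

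**Figure D4:**
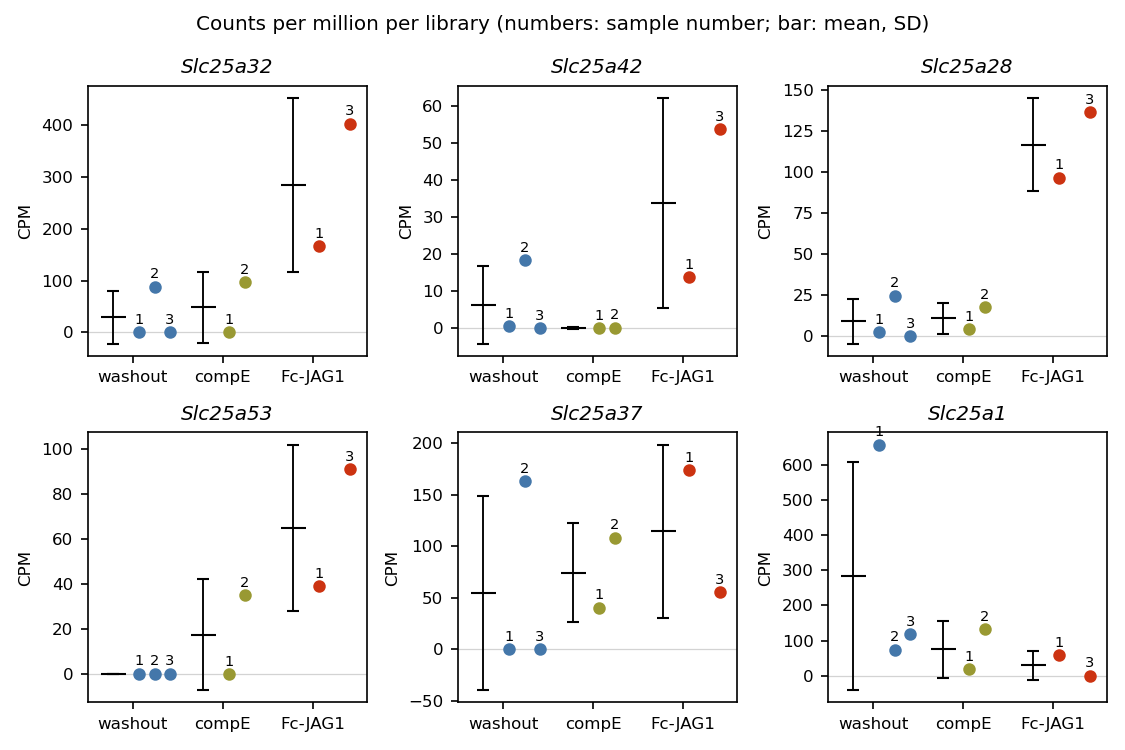
CPM of 6 carriers in each library (coloured points with the sample number) beside the mean and SD of each group. Slc25a32 and Slc25a28 are higher in both Fc-JAG1 libraries than in any other, Slc25a53 is near 0 in the 3 washout libraries and in compE 1, and Slc25a37 and Slc25a1 overlap between Fc-JAG1 and compE.

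Continued compE was compared with the same washout libraries to ask what blocked Notch cleavage changes. EdgeR called no carrier and 0% of all tested genes. No carrier had an unadjusted p under 0.05 in it, which 271 of all tested genes had. DESeq2 called 1 member higher (2.94%, beside 5.66% of all tested genes), Slc25a37, and 2 lower (5.88%, beside 3.67%), Slc25a39 and Slc25a47. Groups did not overlap for 1 higher member, Slc25a26 (2.94%, beside 10.9%), and 1 lower, Slc25a39 (2.94%, beside 6.79%). The median log2 fold change was 0.29 for the members and −0.10 for all genes.

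Slc25a39 stood at 41.1 ± 58.1 CPM with compE (n = 2) and 212 ± 160 in the washout (n = 3). Its log2 fold change was −4.36 (SE 4.03, adjusted p = 1) in edgeR and −8.70 (SE 2.85, adjusted p = 0.0314) in DESeq2. It had no count in compE 1, and 3186 in compE 2. For Slc25a47 the DESeq2 value was −7.31 (SE 2.56, adjusted p = 0.0474) and for Slc25a37 it was 8.70 (SE 2.69, adjusted p = 0.0202). The calls of Slc25a39 and Slc25a47 were kept in 2 of 7 fits without 1 library and that of Slc25a37 in 1 of the 5 in which it could be made. Without washout 1 or washout 3 DESeq2 called 0 carriers, beside 127 and 224 of 10311 tested genes. Without washout 2 it called 3 higher and 3 lower, beside 657 and 583 of all tested genes. Without compE 1 the median edgeR log2 fold change was 0.005 for the members and −0.009 for all genes. Without compE 2 these medians were 0.22 and −0.26. With no sample number the DESeq2 values were −3.02 for Slc25a39, −4.73 for Slc25a47 and 0.51 for Slc25a37. With TMM factors the calls were 2 higher (Slc25a12 and Slc25a37) and 1 lower (Slc25a39), beside 595 and 315 of all tested genes.

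By edgeR's p the members that led on the higher side were Slc25a53 at 6.75 (SE 5.44), Slc25a13 at 2.50 (SE 2.07) and Slc25a21 at 2.80 (SE 2.42), and on the lower side Slc25a42 at −6.43 (SE 4.97), Slc25a36 at −7.45 (SE 5.90) and Slc25a39. None of these log2 fold changes exceeded its error by much, and the adjusted p of each was 1 in edgeR. The translocase Slc25a5 stood at −0.49 (SE 0.98) and Slc25a3 at −0.30 (SE 0.72). Mitoferrin-2 was close to the washout here, with 11.04 ± 9.46 CPM with compE and a log2 fold change of 0.45 (SE 2.76) in edgeR.

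Fc-JAG1 was set against compE as the contrast of ligand and block, with the same libraries that entered the other comparisons. No carrier was called by edgeR, with 0% of all genes called, and 3 members had an unadjusted p under 0.05 (2 higher, 1 lower), as had 292 genes in all. DESeq2 called 3 members higher (8.82%, beside 9.18% of all tested genes), Slc25a32, Slc25a42 and Slc25a28, and 1 lower (2.94%, beside 2.21%), Slc25a21. With 2 libraries a side, 5 members did not overlap on the higher side (14.7%, beside 15%) and 4 on the lower (11.8%, beside 15.4%). The higher ones were Slc25a32, Slc25a42, Slc25a28, Slc25a53 and Slc25a17, and the lower ones included Slc25a11, Slc25a4 and Slc25a26. The median log2 fold change was 1.11 for the members and 0.43 for all genes.

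In edgeR the log2 fold change of Slc25a32 was 12.27 (SE 4.93), that of Slc25a42 was 13.49 (SE 5.71) and that of Slc25a28 was 5.76 (SE 3.39), each with an adjusted p of 1. In DESeq2 the same genes had 12.22 (SE 2.15, adjusted p = 7.57e-06), 13.13 (SE 2.67, adjusted p = 0.000155) and 8.21 (SE 2.72, adjusted p = 0.0266). Slc25a21 stood at 1.01 ± 0.729 CPM with Fc-JAG1 and 10.7 ± 14.3 with compE, with −5.63 (SE 2.66, adjusted p = 1) in edgeR and −5.26 (SE 1.72, adjusted p = 0.0248) in DESeq2, a call that no fit without 1 library kept. That of Slc25a42 was kept in the 5 fits where it could be made, that of Slc25a32 in 4 of 5, and that of Slc25a28 in 2 of 7. With no sample number the DESeq2 values were 2.88 for Slc25a32, 8.66 for Slc25a42, 3.59 for Slc25a28 and −3.54 for Slc25a21, with none called. Slc25a20 had −8.15 (SE 6.31) in edgeR. Without washout 1, 2 or 3 DESeq2 called 4, 4 and 2 carriers, beside 1041, 992 and 824 of 10311 tested genes. Without Fc-JAG1 1 the median edgeR log2 fold change was 0.006 for the members and −0.25 for all genes.

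**Figure D5:**
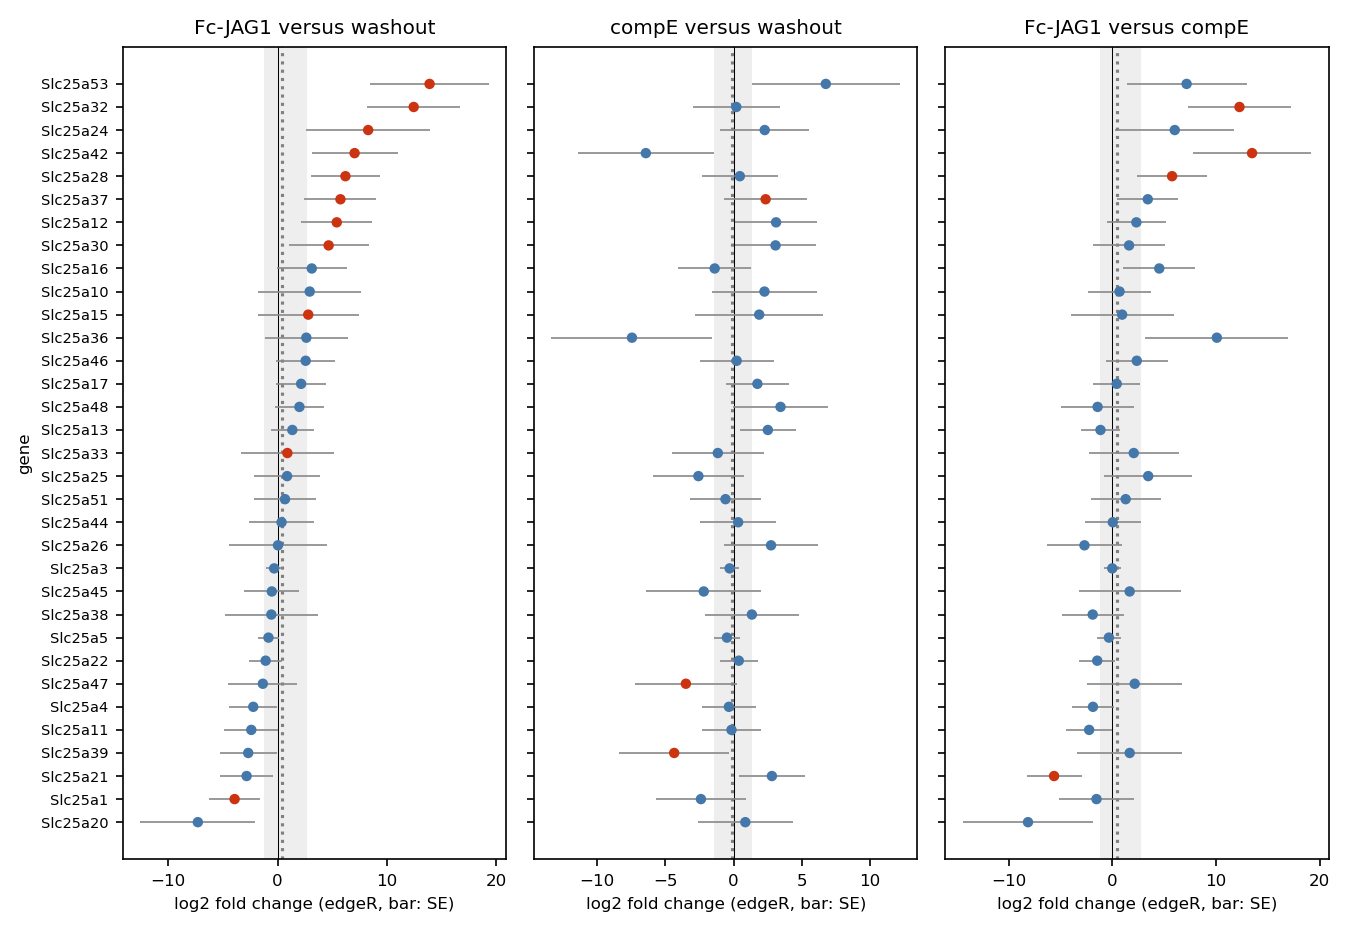
Points give the edgeR log2 fold change of 33 tested carriers with its SE in each comparison, in the order of Fc-JAG1 versus washout; red points were called by DESeq2, the dotted line is the median of all tested genes and the grey band their quartiles. The narrowest bars are those of Slc25a3 and Slc25a5, such as 0.73 and 0.99 in the first comparison, and the bars of Slc25a53 and Slc25a20 there span 5.43 and 5.27 on either side.

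Other genes of mitochondrial transport were taken from a list of 33, of which 24 were tested: outer membrane channels, the TIM22 import of carriers, pyruvate carrier, calcium uniporter, sideroflexins, ABC transporters and family members under other symbols. EdgeR called 0 of them in each comparison, with 0, 0 and 1 at an unadjusted p under 0.05. With Fc-JAG1 against the washout DESeq2 called 3 higher (12.5%, beside 15.7% of all tested genes) and 1 lower (4.17%, beside 4.74%), shares close to those over all genes. Letm1, a cation exchanger of the inner membrane, had 0, 2295 and 1 counts in the washout, and 3027 and 453 with Fc-JAG1 (log2 fold change 10.93, SE 2.31, in DESeq2). Timm9, a chaperone that guides carriers to TIM22, had 62, 6161 and 0 in the washout, and 7458 and 7696 with Fc-JAG1 (9.34, SE 2.16), and Mpc2, of the pyruvate carrier, had 7.66 (SE 1.98). The receptor Tomm70a, which receives carriers at the outer membrane, was the lower one, with 11628, 16900 and 20546 counts in the washout and 12314 and 2952 with Fc-JAG1 (−2.10, SE 0.61). With compE against the washout the calls were Sfxn2 higher and Mtch2 lower (4.17% each, beside 5.66% and 3.67%), and with Fc-JAG1 against compE they were Mpc2, Letm1 and Abcb8, each higher (12.5%, beside 9.18%). The median edgeR log2 fold changes of the 24 genes were 0.51, −0.09 and 0.72 in the 3 comparisons, beside 0.44, −0.10 and 0.43 for all genes.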

How the data were processed

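Nascent RNA was measured in 7 libraries of GFI1+ IAHC cells, grouped by the labels. The authors used cutadapt 4.2 for trimming, STAR 2.7.8 for alignment to GRCm38 (mm10) and featureCounts (Subread 2.0.1) for counting unique alignments over whole genes. The deposited raw counts, whole numbers with no normalization, were used here. The authors' filtered counts hold the 10311 genes tested here, and their log2 values (variance-stabilizing transformation, DESeq2 1.38.3) were not used. Fc-JAG1 2, excluded in the study, is not analysed here.

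Of 55487 gene identifiers 55227 were placed by GENCODE M21 (GRCm38), which gave symbols and lengths. Members, role groups and lists were chosen with earlier results of these data known. The main test was edgeR 4.0.16 (R 4.3.3; quasi-likelihood test with adjusted deviances, TMM factors, terms for sample number and condition, all 7 libraries in one fit). DESeq2 1.42.0 (Wald test, same terms) is given beside it. A gene was called at a Benjamini-Hochberg adjusted p under 0.05 with at least 10 counts in at least 2 libraries of either group. CPM are scaled by TMM factors, and levels per kb use the summed exon length. Both fits were tested on simulated data with known changes. They recovered most of them at a small spread between libraries. At a spread near that of these libraries edgeR called none, and most genes called by DESeq2 were simulated without a change. The simulated counts had the same spread for all genes and no sample effect, so they give no error rate for these data. DESeq2 calls are given as that test's output only. Libraries of one number share a biological sample by the study's account. Their deviations from the group means correlated at −0.0854 to 0.0915 (5 pairs), and those of libraries of different numbers and groups at −0.0964 to 0.0964. Deviations in a group of 2 libraries mirror each other, so these values are not independent. The p-values measure the spread between libraries that is left after the terms for sample number and condition. The sources differ on what a sample is, so this is not a spread between single animals. Members named with fold changes are, per comparison, the 3 with the smallest edgeR p on each side and those called by DESeq2 (at most 10), and of the transport list those called. Alternatives were other scalings, no filter, no sample number and leaving out each library. Figures were drawn with matplotlib 3.10.9. Promoter windows are from RefSeq. The values of 1 member, which enters the counts and medians, are not reported here.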

Additional observations from a re-analysis of the deposited data

How the results depend on the processing

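EdgeR called 0 SLC25 carriers in each comparison under every alternative run. In place of edgeR, DESeq2 called 11, 3 and 4 carriers (Fc-JAG1 versus washout, compE versus washout, Fc-JAG1 versus compE) and 4, 2 and 3 of the other transport genes, the last an alternative added after the data had been seen. With no filter on low counts DESeq2 called 7, 0 and 2 carriers. With the replicate block left out it called 1, 0 and 0. Leaving out 1 library at a time gave 1 to 10, 0 to 6 and 2 to 4 where each group compared kept at least 2 libraries. Where a group is left with 1 library, it is assumed to vary like the others. Counts with TMM factors in DESeq2 were within 1.5 times. The cause was not tested for any of these, except that a group of 1 library cannot meet the count rule alone. The common dispersion between libraries was 2.42 in edgeR.

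Of 286 fold changes of single carriers under alternatives 248 kept direction and side of the threshold, 17 passed it and 21, of 8 carriers and comparisons, turned. For Fc-JAG1 versus washout, Slc25a20 turned from −7.29 to 2.03 with DESeq2 (−11.07 to 6.93 over fits without 1 library), Slc25a15 from 2.81 to −1.17 and Slc25a24 from 8.30 to −0.09 with no replicate block, and Slc25a15 ranged from −14.24 to 17.17 without 1 library. For compE versus washout the ranges without 1 library were −0.57 to 7.92 for Slc25a53, −0.05 to 5.42 for Slc25a13, −14.11 to 2.85 for Slc25a36 and −0.61 to 12.36 for Slc25a37. For Fc-JAG1 versus compE, Slc25a20 turned from −8.15 to 2.69 with DESeq2 and ranged from −12.31 to 5.69.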
